A study of Mus musculus with 29 samples.

Results

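The genes described here encode the machinery that moves proteins made in the cytosol into mitochondria. They were chosen by name: protein-coding genes whose symbol begins with Timm or Tomm followed by a number, together with Hspd1, Hspe1, Hspa9, Pmpca, Pmpcb, Grpel1, Pam16, Dnajc19 and Samm50, with a mean of at least 1 CPM (a gene's counts scaled to a common library size) over all libraries. Of the 48023 genes in the table, 34 protein-coding genes matched the names and 31 reached the level. The other 3 were Tomm6, with a mean of 0.162 CPM, Tomm20l, which had 0 counts, and Timm8a2, with 0.00317 CPM. The rule itself used no difference between groups, though it was set with earlier results of these data known. All 31 genes passed the filter on low counts in every fit.

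RNA was sequenced from skeletal muscle (tibialis anterior by the study's supplement) of 29 male mice, 2 to 3 months old and labelled C57BL/6J, either fed or fasted. In M-p110αKO mice a Cre recombinase driven by the human skeletal actin (HSA) promoter deleted floxed exon 1 of the PI3-kinase catalytic subunit p110α, and in M-p110βKO mice floxed exon 2 of p110β. The controls of each line were its floxed mice (WT in the labels), so the controls carry loxP sites too, and cells of the muscle that do not express the actin promoter keep the gene. The groups were fed p110α floxed (n = 4), fed M-p110αKO (n = 4), fasted p110α floxed (n = 4), fasted M-p110αKO (n = 3), fed p110β floxed (n = 3), fed M-p110βKO (n = 4), fasted p110β floxed (n = 3) and fasted M-p110βKO (n = 4). The supplement describes the p110β line as less purely C57BL/6, so line and genetic background cannot be told apart.

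Nearly all mitochondrial proteins are encoded in the nucleus and imported after synthesis. Precursors are recognised by receptors of the TOM complex (Tomm20, Tomm22, Tomm70a) and pass the outer membrane through the Tomm40 channel. From there small TIM chaperones escort hydrophobic proteins to the TIM22 translocase of the inner membrane, while precursors with a presequence enter the matrix through the TIM23 translocase, pulled by a motor around the Hsp70 protein mortalin (Hspa9). The processing peptidase (Pmpca, Pmpcb) removes the presequence, and the Hsp60 and Hsp10 chaperonins (Hspd1, Hspe1) fold many of the imported proteins. Muscle is rich in mitochondria and depends on this route for its respiratory chain.

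Promoter sequences from RefSeq (assembly GRCm38.p6), 250 bases before to 50 after the start of transcription, were found for 27 of the 31 genes and were searched on both strands for 5 sets of letters. The ETS core CCGGAAG was present in 12 of the 27 (44.4%), against 12.4% of all 16387 promoters searched and 18.6% of the 9233 promoters of genes tested here. The letters AAGGTCA, which estrogen-related receptors bind, were in 4 of 27 (14.8%), against 3.9% of all promoters and 2.9% of those of tested genes, and the E-box CACGTG was in 5 of 27 (18.5%), against 8.1% and 10.5%. The NRF1 core CGCATGCG was in 1 promoter, that of Timm13 (3.7%, against 2.7% and 4.1%), and paired heat shock units GAANNTTC were in 2 (7.4%, against 7.3% and 5.6%). The ETS and AAGGTCA letters share AAG at their ends and so can overlap in a sequence, and a match is a description of the sequence, not a binding site.

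The bases just upstream of the transcript are shown for 5 members to which the results return. Averaged over the 4 genotypes, Timm10 (chr2:84826771-84826996, plus strand) and Tomm70a (chr16:57121464-57121702, plus strand) rose on fasting. In the same average Timm22 (chr11:76406675-76406924, plus strand), Tomm5 (chr4:45108115-45108363, minus strand) and Timm13 (chr10:80900970-80901219, minus strand) fell. Of the 5, Timm22 alone was called in each genotype. Each sequence is written 5′ to 3′ on the gene's strand, with any of the 5 motifs in capitals.
Timm10: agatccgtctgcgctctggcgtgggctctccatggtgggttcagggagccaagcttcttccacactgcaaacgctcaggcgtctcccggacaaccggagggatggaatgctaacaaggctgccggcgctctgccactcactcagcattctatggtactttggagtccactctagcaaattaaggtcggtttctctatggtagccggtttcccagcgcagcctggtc
Tomm70a: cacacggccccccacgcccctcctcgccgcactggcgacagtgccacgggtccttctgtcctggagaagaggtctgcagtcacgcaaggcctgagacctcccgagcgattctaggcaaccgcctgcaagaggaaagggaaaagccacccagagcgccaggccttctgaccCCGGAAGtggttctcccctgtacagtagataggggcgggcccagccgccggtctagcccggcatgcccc
Timm22: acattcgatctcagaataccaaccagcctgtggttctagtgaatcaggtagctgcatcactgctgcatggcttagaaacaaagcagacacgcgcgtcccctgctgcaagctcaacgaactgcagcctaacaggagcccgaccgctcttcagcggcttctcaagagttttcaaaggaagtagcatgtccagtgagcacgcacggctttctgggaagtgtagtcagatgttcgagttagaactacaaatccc
Tomm5: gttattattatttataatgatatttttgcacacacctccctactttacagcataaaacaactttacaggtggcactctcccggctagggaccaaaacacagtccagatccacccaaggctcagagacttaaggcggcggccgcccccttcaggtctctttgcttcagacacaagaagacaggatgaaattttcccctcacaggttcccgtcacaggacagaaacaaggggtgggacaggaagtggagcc
Timm13: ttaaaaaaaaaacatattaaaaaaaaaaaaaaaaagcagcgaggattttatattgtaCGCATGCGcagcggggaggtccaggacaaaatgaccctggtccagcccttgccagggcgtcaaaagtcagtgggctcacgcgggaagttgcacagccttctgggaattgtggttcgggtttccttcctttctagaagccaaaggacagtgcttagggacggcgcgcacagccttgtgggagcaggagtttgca
In these windows Tomm70a held the ETS core and Timm13 the NRF1 core, while Timm10, Timm22 and Tomm5 held none of the 5. The ETS core and the E-box counted for Timm10 above lay outside the stretch printed here.

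Libraries held 5351935 to 11653239 counts (median 7828636), and mitochondrially encoded genes took 6.99 to 12.3% of them. Counts over the whole gene did not separate knockouts from floxed mice in either state: Pik3ca (p110α) lay between 103 and 150 CPM in fed floxed, 106 and 163 CPM in fed M-p110αKO, 171 and 191 CPM in fasted floxed and 158 and 186 CPM in fasted M-p110αKO mice, and Pik3cb (p110β) between 9.96 and 10.7, 9.51 and 11.7, 8.62 and 10.2, and 9.34 and 10.2 CPM in the same order of the p110β line. Reads from the exons that remain enter these counts, so they do not check a deletion of 1 exon. The 7 markers of skeletal muscle summed to between 108000 and 147000 CPM in every library. Libraries 23 and 24, both fasted p110β floxed, stood apart in adipocyte transcripts: 5 adipocyte markers (Adipoq, Plin1, Cidec, Lep and Cfd) summed to 143 and 148 CPM there and to between 0.123 and 19.6 CPM in the other 27 libraries, so calls that use that group are also given without them. That leaves 1 fasted p110β floxed library, which was assumed to vary like the other groups. In bulk tissue, fewer cells of a type and less RNA per cell cannot be told apart. The labels do not say more of the replicates than that they are numbered mice, so p-values measure the spread between these samples.

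The import genes covered a wide range of levels. Counts were scaled to CPM with TMM factors and, to compare genes, divided by exon length. This is the length of all annotated exons of a gene merged, not that of 1 transcript, and the order of genes depends on it. Per kilobase, Hspa9 was the highest of the 31 (197 CPM per kb), followed by Hspd1 (61.4), the receptor Tomm22 (48.1), both processing peptidase subunits Pmpca (36.4) and Pmpcb (31.2), Hspe1 (35.0) and Grpel1 (30.3), the nucleotide exchange factor of the motor. The lowest were Tomm40l (0.942 CPM per kb), a paralog of the channel gene, and the small TIM genes Timm10b (1.78), Timm8a1 (2.23) and Timm9 (2.25).

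Within TOM, the channel gene Tomm40 (4.99 CPM per kb) and the receptors Tomm20 (4.51) and Tomm70a (10.4) were below Tomm22 and below the small subunits Tomm5 (21.7) and Tomm7 (16.8), which stabilise the complex. Without division by length the order was Tomm70a (102 CPM), Tomm22 (79.4), Tomm40 (22.5), Tomm20 (22.1), Tomm7 (18.9) and Tomm5 (18.8). Samm50, which inserts barrel proteins into the outer membrane, was at 16.5 CPM per kb, and Tomm34, a cytosolic cochaperone, at 4.27. The other small TIM genes were Timm8b (21.0), Timm10 (14.7) and Timm13 (11.3), and the TIM22 genes Timm29 (26.0) and Timm22 (12.8). In TIM23, Timm17a (13.5), Timm50 (13.0), which receives precursors from TOM, and Timm23 (11.0), the channel, lay above Timm17b (4.72) and Timm21 (4.06). The remaining motor genes were Timm44 (15.3), which tethers mortalin to the channel, Pam16 (5.40) and the J-protein gene Dnajc19 (4.00).

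The summed level of the 31 genes, in CPM, was 2417 ± 83.0 (SD) in fed p110α floxed mice, 2586 ± 142 in fed M-p110αKO, 2372 ± 95.9 in fasted p110α floxed and 2411 ± 61.1 in fasted M-p110αKO. Mice of the p110β line had 2128 ± 147, 2081 ± 71.0, 2291 ± 60.3 and 2305 ± 179 in the same order. Hspa9, with a mean of 848 ± 142 CPM over the 29 libraries, made up much of this sum.

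Some members may share reads with other genes, since the strand setting used for counting is not stated. Exons of Tomm40l overlap those of Nr1i3 on the opposite strand over 3304 of 5135 bases, and those of Pmpca overlap Inpp5e over 874 bases. Hspd1 and Hspe1 lie head to head and overlap by 112 bases. Annotated pseudogenes at least 95% identical over 200 bases or more were found for Tomm20 (3), Timm23 (4), Timm8a1, Timm17a, Dnajc19 and Hspd1 (1 each), and held between 0.128% and 1.74% as many counts as the gene.

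**Figure D1:**
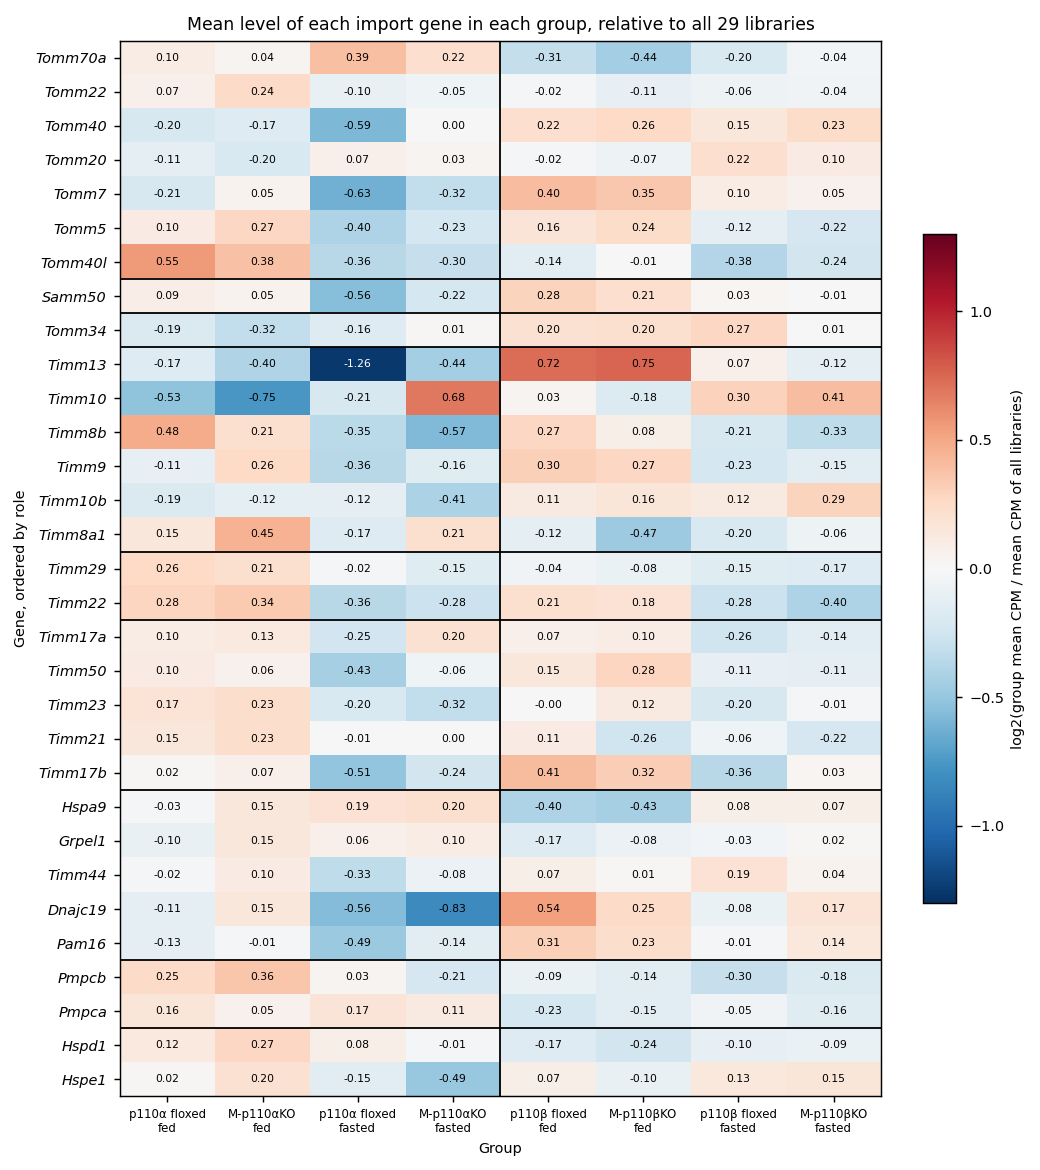
Mean level of each of the 31 import genes (rows, ordered by role, black lines between roles) in each of the 8 groups (columns), as log2 of the group mean CPM over the mean of all 29 libraries. The values run from -1.26 for Timm13 in fasted p110α floxed mice to 0.75 for Timm13 in fed M-p110βKO mice, and Timm10 reaches 0.68 in fasted M-p110αKO mice.

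Averaged over the 4 genotypes, 4 of the 31 were higher and 17 lower in fasted muscle (edgeR quasi-likelihood test, Benjamini-Hochberg adjusted p under 0.05 over 12760 genes). That is 67.7% of the members, where 55.2% of all genes were called, 3477 higher and 3571 lower. The median log2 fold change was -0.21 over the members and -0.02 over all genes. In the same average 3 of 7 skeletal muscle markers (Ckm, Tnnt3 and Acta1), 3 of 5 fibroblast markers (Col1a1, Col1a2 and Lum), 2 of 4 endothelial, 1 of 4 erythroid and 1 of 2 satellite cell markers were lower, and 3 of 6 adipocyte markers (Fabp4, Lep and Cidec) and the fibroblast marker Pdgfra higher; macrophage markers were not called, and the part of these cells in the result was not tested.

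By role, both TIM22 genes fell, as did 4 of 5 TIM23 genes, 3 of 6 small TIM genes, 3 of 7 TOM genes, 2 of 5 motor genes, Samm50, Pmpcb and Hspe1. The fall of Hspe1 (-0.14 ± 0.05, SE, adjusted p = 0.0319) was lost in 14 of 35 alternatives and changed sign in another, without the fasted M-p110αKO libraries (0.06 ± 0.06, adjusted p = 0.451). Those 14 were the fits with no low-count filter, with the GC and length correction, without libraries 23 and 24 together, and without library 4, 6, 10, 13, 14, 16, 17, 18, 21, 23 or 29. Rises were seen in 2 TOM receptors, Tomm70a and Tomm20, in the motor protein gene Hspa9 and in the small TIM gene Timm10. The 10 members that did not pass had log2 fold changes between -0.13 (Timm21) and 0.08 (Grpel1), and included Tomm40, Tomm22, Pmpca and Hspd1. Timm22 was called in each of the 4 genotypes. The direction of the estimate was downward in all 4 genotypes for 15 members and upward in all 4 for Timm10, Hspa9, Tomm70a and Tomm20.

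**Figure D2:**
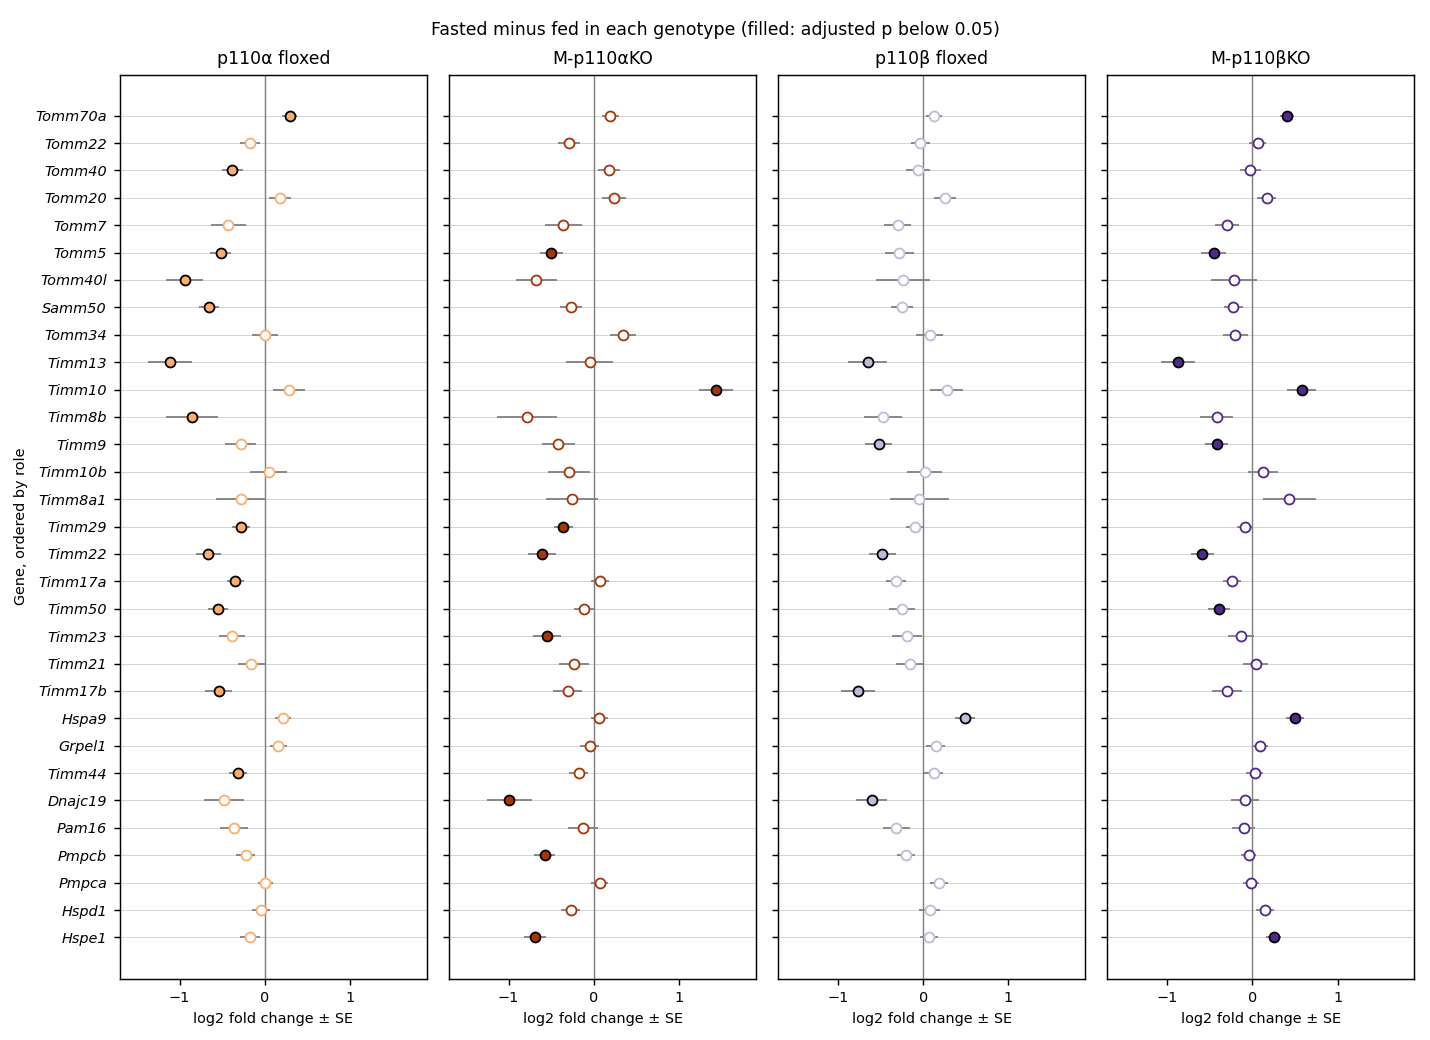
Log2 fold change of fasted over fed muscle (points, bars are SE) for the 31 import genes in each of the 4 genotypes; filled points have an adjusted p below 0.05. Timm22 is filled on the left of 0 in all 4 panels, and Timm10 lies on the right of 0 in all 4, furthest in M-p110αKO (1.43).

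Timm10 encodes a small TIM chaperone that forms a ring with Timm9 and carries membrane proteins across the intermembrane space. Its level was 7.45, 9.12, 5.84 and 10.9 CPM in fed p110α floxed mice (libraries 1 to 4) and 10.8, 10.3, 10.8 and 9.57 CPM in fasted ones (libraries 9 to 12). In M-p110αKO mice it was 6.54, 9.33, 6.86 and 5.79 CPM fed and 18.7, 15.8 and 23.4 CPM fasted. All 3 fasted knockouts thus lay above every other library of the p110α line, while the floxed groups overlapped.

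Timm10 in the p110β line was at 10.9, 13.2 and 12.8 CPM in fed floxed and 12.5, 14.8 and 16.9 CPM in fasted floxed mice. M-p110βKO mice had 12.9, 10.8, 11.3 and 7.34 CPM fed and 16.4, 13.2, 14.5 and 19.6 CPM fasted. Fasted and fed knockouts did not overlap, whereas fasted and fed floxed mice did. The log2 fold change on fasting was 1.43 ± 0.20 (SE, adjusted p = 9.05e-05) in M-p110αKO and 0.58 ± 0.17 (SE, adjusted p = 0.0117) in M-p110βKO, and the estimates in floxed mice, 0.28 ± 0.19 (SE, adjusted p = 0.277) and 0.28 ± 0.19 (SE, adjusted p = 0.307), did not pass. Without libraries 23 and 24 the p110β floxed value was 0.48 ± 0.27 (adjusted p = 0.241). Averaged over genotypes it was 0.64 ± 0.10 (SE, adjusted p = 1.9e-06), and 0.39 ± 0.11 (adjusted p = 0.00374) with the 3 fasted M-p110αKO libraries left out.

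Hspa9 encodes mortalin, the ATP-driven Hsp70 of the import motor. Fed and fasted p110α floxed mice had 785, 849, 926 and 771 CPM and 958, 931, 940.4 and 1034 CPM. Fed and fasted M-p110αKO mice had 918, 859.9, 933 and 1049 CPM and 1014, 913 and 1005 CPM. The fasted floxed libraries were all above the fed floxed ones, and the knockout groups overlapped.

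In the p110β line Hspa9 was lower in fed floxed muscle than in the p110α line (-0.37 ± 0.10) and rose on fasting in both genotypes. It was at 579, 649 and 700.4 CPM in fed and 891, 943 and 850.0 CPM in fasted floxed mice. M-p110βKO mice had 607, 646, 600.3 and 666 CPM fed and 839.9, 957, 1001 and 772 CPM fasted. Neither pair of groups overlapped. The rise was 0.49 ± 0.12 (SE, adjusted p = 0.00536) in p110β floxed and 0.50 ± 0.10 (SE, adjusted p = 0.000942) in M-p110βKO mice, and the estimates in the p110α line were 0.21 ± 0.09 (SE, adjusted p = 0.0981) in floxed and 0.06 ± 0.10 (SE, adjusted p = 0.715) in knockout mice. The p110β floxed rise did not pass without libraries 23 and 24 (0.42 ± 0.17, adjusted p = 0.108).

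Tomm70a, the receptor for carrier proteins and other precursors without a presequence, was at 105, 111, 119 and 101 CPM in fed and 123, 129, 139 and 142 CPM in fasted p110α floxed mice, and at 106, 98.4, 98.5 and 114 CPM and 117, 109 and 129.8 CPM in fed and fasted M-p110αKO mice. Tomm70a in the p110β line was at 81.2, 84.4 and 80.2 CPM and 85.9, 88.7 and 91.3 CPM in fed and fasted floxed mice, and at 67.2, 79.9, 74.3 and 77.8 CPM and 101, 103, 97.4 and 95.4 CPM in fed and fasted M-p110βKO mice. Apart from M-p110αKO, fasted libraries were all above fed ones of the same genotype. The rise passed in p110α floxed, 0.29 ± 0.09 (SE, adjusted p = 0.0255), and in M-p110βKO mice, 0.41 ± 0.08 (SE, adjusted p = 0.000917). The first call was lost in 6 of 12 alternatives (no low-count filter, the GC and length correction, and without library 1, 4, 11 or 12) and the second with the GC and length correction. The average over genotypes was 0.25 ± 0.04 (SE, adjusted p = 1.57e-05).

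Tomm20, the presequence receptor, was called only in the average over genotypes, 0.21 ± 0.06 (SE, adjusted p = 0.00674). Its levels were 17.2, 18.9, 21.2 and 24.5 CPM fed and 21.3, 23.6, 26.0 and 22.1 CPM fasted in p110α floxed mice, and 16.4, 22.6, 19.5 and 18.6 CPM and 20.1, 24.6 and 23.2 CPM in M-p110αKO. Mice of the p110β line had 23.7, 22.6 and 19.2 CPM and 25.1, 26.5 and 25.7 CPM in floxed mice and 18.9, 20.9, 19.8 and 24.8 CPM and 23.8, 24.9, 24.8 and 21.5 CPM in M-p110βKO. Fed and fasted libraries overlapped in every genotype but p110β floxed.

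Timm22 encodes the channel through which carrier proteins enter the inner membrane. Its level in p110α floxed mice was 52.7, 48.8, 40.3 and 56.1 CPM fed and 32.1, 25.6, 40.4 and 28.3 CPM fasted, and in M-p110αKO mice 48.9, 45.9, 64.4 and 46.1 CPM fed and 31.98, 33.8 and 34.9 CPM fasted. In p110β floxed mice it was 43.6, 44.9 and 52.3 CPM fed and 36.3, 33.6 and 30.3 CPM fasted, and in M-p110βKO mice 45.2, 39.9, 44.4 and 55.4 CPM fed and 28.0, 31.9, 38.9 and 24.1 CPM fasted. Fasted libraries were below fed ones in every genotype, except that 1 fasted p110α floxed library (40.4 CPM) was level with the lowest fed one (40.3 CPM). The log2 fold changes were -0.66 ± 0.14 (SE, adjusted p = 0.00233), -0.61 ± 0.16 (SE, adjusted p = 0.0113), -0.48 ± 0.16 (SE, adjusted p = 0.0296) and -0.58 ± 0.14 (SE, adjusted p = 0.00262) in that order of genotypes, and -0.59 ± 0.08 (SE, adjusted p = 2.78e-07) on average. The p110β floxed call was lost without library 18, 24 or 25 and without libraries 23 and 24.

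Tomm5, a small TOM subunit, fell in 3 genotypes. It was at 21.2, 21.6, 19.1 and 19.0 CPM in fed and 14.0, 12.2, 16.5 and 14.2 CPM in fasted p110α floxed mice, and at 19.6, 25.2, 20.7 and 25.4 CPM and 16.1, 14.7 and 17.4 CPM in fed and fasted M-p110αKO mice. In p110β floxed mice the levels were 22.1, 19.8 and 21.4 CPM and 17.4, 17.1 and 17.4 CPM, and in M-p110βKO mice 25.5, 19.9, 25.0 and 18.2 CPM and 11.8, 16.3, 19.8 and 16.7 CPM. Fed and fasted libraries overlapped in M-p110βKO mice alone, and the estimate that did not pass was that of p110β floxed mice, -0.28 ± 0.17 (SE, adjusted p = 0.233). The M-p110αKO call was lost with the GC and length correction or without library 14, and the M-p110βKO call without library 19, 21 or 26. The average over genotypes was -0.44 ± 0.07 (SE, adjusted p = 5.99e-06).

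Timm13 works with Timm8 proteins as a chaperone of the intermembrane space and showed the largest average fall of the 31, -0.67 ± 0.13 (SE, adjusted p = 5.95e-05). In p110α floxed mice it was at 12.2, 13.4, 9.74 and 19.4 CPM fed and 7.14, 5.60, 6.64 and 6.41 CPM fasted, and in M-p110αKO mice at 7.54, 15.1, 11.8 and 12.5 CPM fed and 9.42, 17.4 and 7.23 CPM fasted. For the p110β line the values were 21.5, 18.9 and 36.0 CPM and 14.9, 17.6 and 16.1 CPM in fed and fasted floxed mice and 30.2, 18.4, 28.4 and 26.9 CPM and 13.8, 11.7, 18.4 and 13.1 CPM in fed and fasted knockouts. The fall passed in p110α floxed (-1.12 ± 0.26, SE, adjusted p = 0.00359), p110β floxed (-0.65 ± 0.22, SE, adjusted p = 0.0381) and M-p110βKO mice (-0.87 ± 0.20, SE, adjusted p = 0.00221), with no overlap of groups. The p110β floxed call was lost in 6 of 11 alternatives (the GC and length correction, without library 18, 23, 24 or 25, and without libraries 23 and 24). In M-p110αKO mice the groups overlapped and the estimate was -0.05 ± 0.27 (SE, adjusted p = 0.914).

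Samm50 and the TIM23 receptor gene Timm50 fell on fasting in p110α floxed mice. Samm50 was at 114, 104, 102 and 140.4 CPM fed and 79.4, 74.2, 71.0 and 70.0 CPM fasted, a change of -0.65 ± 0.12 (SE, adjusted p = 0.000566), and Timm50 at 37.3, 42.2, 31.0 and 39.8 CPM fed and 26.3, 26.1, 27.4 and 23.7 CPM fasted, a change of -0.55 ± 0.12 (SE, adjusted p = 0.00159). In fasted M-p110αKO mice Samm50 was at 89.0, 105 and 84.5 CPM and Timm50 at 34.2, 37.6 and 28.9 CPM, above every fasted floxed library of the line in both cases. Fed M-p110αKO mice had 94.8, 115, 131 and 107 CPM of Samm50 and 31.8, 38.0, 37.5 and 38.2 CPM of Timm50, which overlapped the fasted knockouts.

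In the p110β line Samm50 was at 122, 134 and 139.8 CPM in fed and 114, 115 and 102 CPM in fasted floxed mice, and at 114, 113, 129 and 146 CPM and 88.7, 111, 120.1 and 111 CPM in fed and fasted knockouts. Timm50 was at 36.1, 38.5 and 41.8 CPM and 36.6, 34.5 and 26.0 CPM in the floxed groups and at 44.3, 35.5, 45.8 and 44.3 CPM and 28.1, 31.1, 39.3 and 30.6 CPM in the knockouts. Fed and fasted groups were apart for Samm50 in floxed mice and overlapped otherwise. Of the 4 comparisons, the fall of Timm50 in M-p110βKO mice passed, -0.39 ± 0.13 (SE, adjusted p = 0.0222), and it was lost in 6 of 12 alternatives (the GC and length correction, and without library 19, 21, 22, 26 or 29).

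Timm17b, an X-linked paralog of the TIM23 subunit gene Timm17a, fell in both floxed genotypes. It was at 10.7, 13.6, 11.1 and 13.6 CPM fed and 8.48, 8.83, 8.24 and 8.29 CPM fasted in p110α floxed mice and at 12.4, 14.8 and 21.0 CPM fed and 9.37, 10.7 and 8.19 CPM fasted in p110β floxed mice, changes of -0.54 ± 0.15 (SE, adjusted p = 0.0124) and -0.76 ± 0.20 (SE, adjusted p = 0.00899), the second lost without library 18. In knockouts it was at 10.1, 14.9, 15.2 and 10.5 CPM and 10.5, 10.4 and 9.69 CPM (fed and fasted M-p110αKO) and at 12.0, 15.0, 16.7 and 16.9 CPM and 10.2, 12.8, 15.2 and 11.0 CPM (fed and fasted M-p110βKO). Fed and fasted groups did not overlap in floxed mice and did in knockouts. The difference between these responses did not pass in either line, with interactions of 0.23 ± 0.22 (SE, adjusted p = 0.66) and 0.47 ± 0.27 (SE, adjusted p = 0.474), the second 0.68 ± 0.36 (adjusted p = 0.666) without libraries 23 and 24.

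Timm9, the partner of Timm10, was called lower on fasting in the p110β line, and neither call held throughout. It was at 8.53, 8.49, 6.82 and 11.9 CPM in fed and 7.14, 9.21, 7.44 and 6.12 CPM in fasted p110α floxed mice, and at 9.68, 10.7, 14.2 and 11.6 CPM and 7.56, 9.87 and 8.46 CPM in fed and fasted M-p110αKO. In p110β floxed mice it was at 13.5, 12.3 and 9.84 CPM fed and 8.49, 8.00 and 8.19 CPM fasted, and in M-p110βKO mice at 11.0, 11.1, 12.0 and 12.4 CPM and 8.74, 9.95, 8.45 and 7.57 CPM. Fed and fasted groups of the p110β line did not overlap and those of the p110α line did, with changes of -0.52 ± 0.16 (SE, adjusted p = 0.0201) in floxed and -0.42 ± 0.14 (SE, adjusted p = 0.0225) in knockout mice, and the average over genotypes was -0.41 ± 0.08 (SE, adjusted p = 0.00014). The floxed call was lost in 6 of 11 alternatives (no low-count filter, without library 16, 17, 24 or 25, and without libraries 23 and 24) and the knockout call in 7 of 12 (no low-count filter, DESeq2, and without library 21, 22, 26, 28 or 29), while the average passed in all 35.

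Dnajc19, a J-protein that stimulates mortalin, was at 15.3, 22.5, 15.8 and 17.9 CPM in fed and 6.69, 9.21 and 11.2 CPM in fasted M-p110αKO mice and at 24.0, 28.4 and 17.8 CPM in fed and 17.2, 12.9 and 15.4 CPM in fasted p110β floxed mice. Fasted libraries were below fed ones in both, with changes of -0.99 ± 0.26 (SE, adjusted p = 0.0119) and -0.60 ± 0.18 (SE, adjusted p = 0.0201). The first call was lost without library 13, the second without library 16, 17 or 24 and without libraries 23 and 24. Fed and fasted p110α floxed mice, at 9.83, 12.6, 13.8 and 23.3 CPM and 10.2, 8.45, 13.6 and 11.3 CPM, and fed and fasted M-p110βKO mice, at 16.6, 21.9, 22.7 and 15.5 CPM and 18.9, 16.2, 17.6 and 20.0 CPM, overlapped.

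Timm23, the channel of the presequence translocase, was at 18.6, 25.8, 26.0 and 21.6 CPM in fed and 15.4, 16.7 and 15.1 CPM in fasted M-p110αKO mice, a change of -0.55 ± 0.17 (SE, adjusted p = 0.0272) that did not pass without library 6, 7, 13 or 15. The other fed and fasted groups overlapped, at 19.3, 20.8, 18.1 and 30.3 CPM and 16.8, 17.1, 16.3 and 18.1 CPM in p110α floxed, 18.5, 18.2 and 22.1 CPM and 20.5, 17.8 and 12.8 CPM in p110β floxed, and 18.7, 19.2, 21.4 and 25.7 CPM and 22.9, 20.0, 19.5 and 15.3 CPM in M-p110βKO mice. The average over genotypes, -0.32 ± 0.08 (SE, adjusted p = 0.00203), did not pass without the fasted M-p110αKO libraries (-0.23 ± 0.10, adjusted p = 0.052).

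Members called in each genotype were then counted. In p110α floxed mice 1 was higher and 12 lower on fasting, where 30.1% of all genes were called. Beside the genes given above, these were Tomm40l (-0.94 ± 0.22), Timm8b (-0.86 ± 0.30), Tomm40 (-0.38 ± 0.12), Timm17a (-0.35 ± 0.10), Timm44 (-0.32 ± 0.10) and Timm29 (-0.28 ± 0.10), all lower. Of 12 alternatives 9 ended the call of Timm29, 8 that of Tomm40, 5 that of Timm44 (no low-count filter and the GC and length correction among them for all 3) and 4 that of Timm8b, while the calls of Timm17a and Tomm40l passed in every one. The libraries concerned were 1, 2, 3, 4, 9, 10 and 12 for Timm29, 1, 2, 3, 10, 11 and 12 for Tomm40, 4, 10 and 12 for Timm44, and 4, 9, 10 and 11 for Timm8b. Markers of other cells moved as well in p110α floxed mice. On fasting 2 of 5 fibroblast markers (sums of 154 to 319 CPM fed and 290 to 373 CPM fasted), 2 of 4 macrophage markers (9.07 to 14.1 and 15.7 to 37.5 CPM), 2 of 4 endothelial markers (223 to 277 and 249 to 316 CPM) and 2 of 6 adipocyte markers (90 to 125 and 154 to 174 CPM) were higher, and 3 of 7 skeletal muscle markers lower (115000 to 147000 and 111000 to 125000 CPM), and their part in the result was not tested. In M-p110αKO mice 1 was higher and 7 lower, where 21.5% of all genes were called; Timm10 rose, and Hspe1, Pmpcb, Timm22, Timm23, Timm29, Tomm5 and Dnajc19 fell. Among cell type markers Fabp4 was higher and Hba-a1 lower in that comparison, and their part in the result was not tested. The call of Timm29 was lost without library 7, 8 or 13. Without library 13, 5 members were called in M-p110αKO mice.

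In p110β floxed mice 1 member was higher and 5 lower, where 26.9% of all genes were called, and between 2 and 4 were called in all without library 16, 17, 18, 24 or 25. Without libraries 23 and 24 only Timm17b passed, at -0.96 ± 0.31 (adjusted p = 0.0428), with the lone fasted library. The 5 adipocyte markers and Fabp4 together summed to between 171 and 421 CPM in fasted p110β floxed libraries and to between 119 and 137 CPM in fed ones. With all libraries, the 4 adipocyte markers tested were higher and Ckm, Col1a2 and Pax7 lower, and their part in the result was not tested. In M-p110βKO mice 4 were higher and 5 lower, where 37.9% of all genes were called, and 5 were called in all without library 26. All 5 fibroblast markers also fell in that comparison, from sums of 269 to 408 CPM in fed to between 120 and 194 CPM in fasted libraries. All 3 tested macrophage markers and 2 of 4 endothelial markers were lower too. Of 7 skeletal muscle markers 1 was higher and 3 lower, and of 2 satellite cell markers 1 was higher and 1 lower. The part of these cells in the result was not tested. Averaged over genotypes without libraries 23 and 24, 4 members were higher and 16 lower.

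In fed muscle no import gene passed the test for either deletion. In fed M-p110αKO against fed floxed mice edgeR called 0 of 31 members (0.611% of all genes were called), 1 member, Grpel1, had an unadjusted p under 0.05, and DESeq2 called 0. Log2 fold changes ran from -0.30 to 0.35. In fed M-p110βKO against fed floxed mice edgeR called 0 (0% of all genes), 1 member, Timm21, had an unadjusted p under 0.05, and DESeq2 called 0. The range was -0.36 to 0.14. In fasted M-p110βKO against fasted floxed mice edgeR and DESeq2 called 0 (0.89% of all genes), 0 members had an unadjusted p under 0.05, and the range was -0.27 to 0.39. In that comparison 3 of the 4 adipocyte markers tested (Plin1, Cfd and Adipoq) and 2 of 5 fibroblast markers (Lum and Col1a1) were lower. The part of these cells in the result was not tested. Without libraries 23 and 24 edgeR again called 0, a fit with 1 floxed library that says nothing of stability.

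Fasted M-p110αKO muscle differed from fasted floxed muscle at 3 import genes, all higher in the knockout: Timm10, Tomm40 and Timm17a. Over all genes 6.52% were called, 375 higher and 436 lower, so 3 of 31 members (9.68%) was near the share of all genes. The median log2 fold change was 0.09 over the members, against 0.003 over all genes. Another 5 members had an unadjusted p under 0.05 without passing: Timm13 (0.83 ± 0.28), Timm50 (0.39 ± 0.12), Samm50 (0.34 ± 0.13), Timm44 (0.26 ± 0.11) and Hspe1 (-0.33 ± 0.13). The share of all genes at that unadjusted threshold was not counted, here or in the other comparisons.

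**Figure D3:**
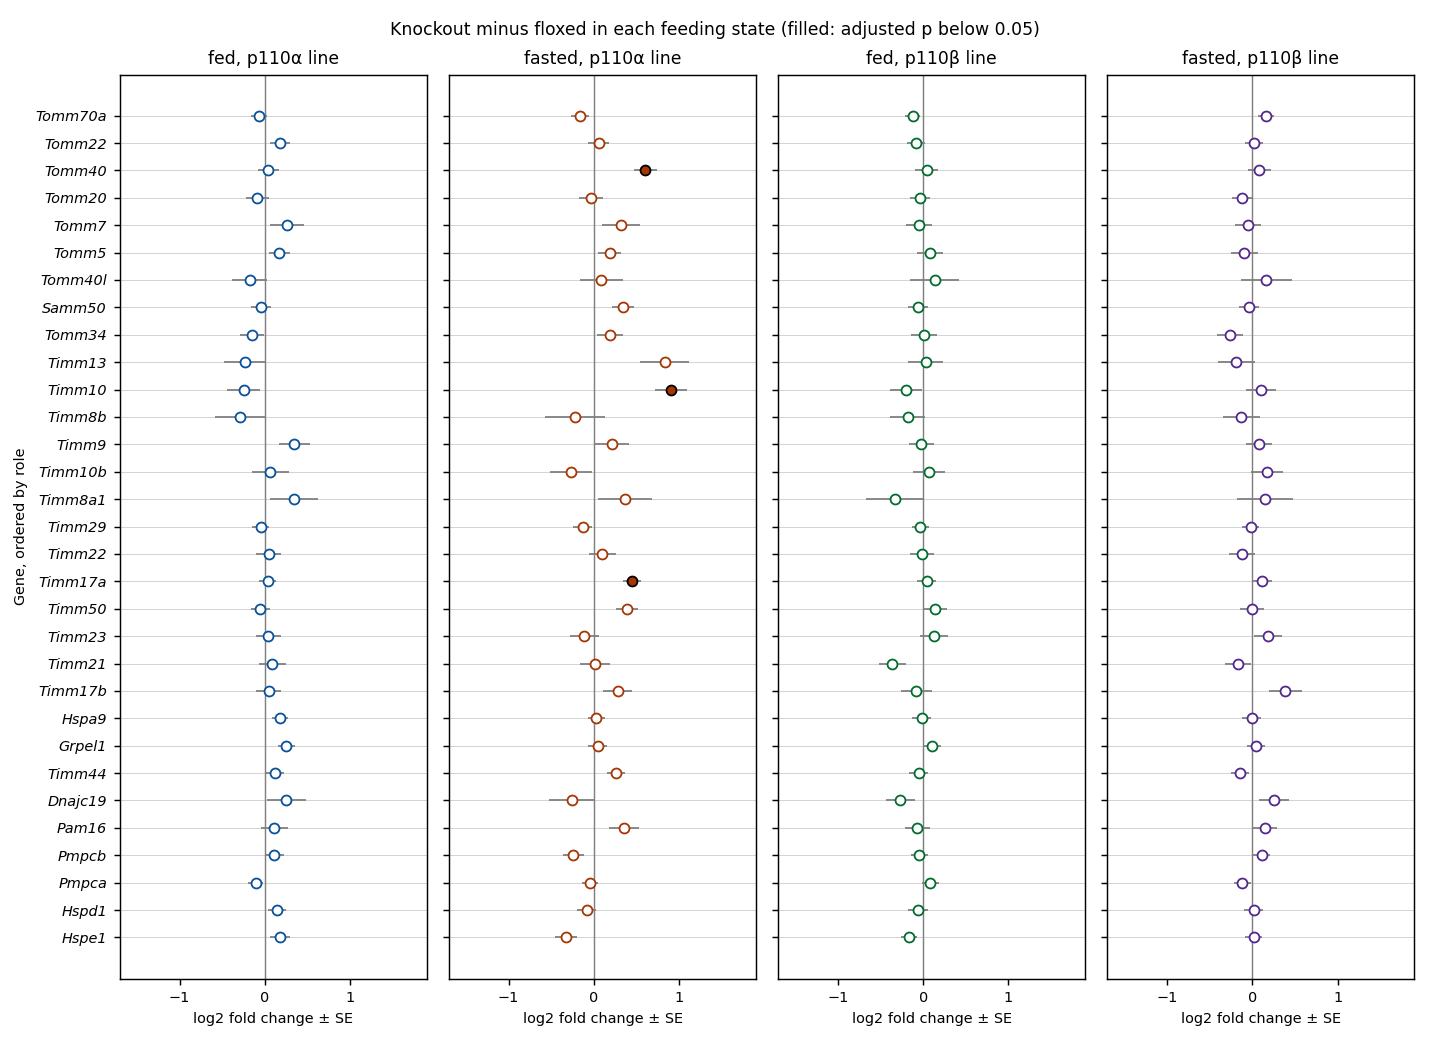
Log2 fold change of knockout over floxed muscle (points, bars are SE) for the 31 import genes, fed and fasted, in each line; filled points have an adjusted p below 0.05. The filled points are Timm10, Tomm40 and Timm17a in fasted muscle of the p110α line.

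For Timm10 (chr2:84826997-84830213, plus strand, GRCm38) the 4 fasted floxed libraries lay between 9.57 and 10.8 CPM and the 3 fasted knockouts between 15.8 and 23.4 CPM, a log2 fold change of 0.90 ± 0.19 (SE, adjusted p = 0.0115). The call held without each of the 7 libraries in turn, with adjusted p up to 0.0486.

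Tomm40 (chr7:19701313-19715438, minus strand), the import channel of the outer membrane, was at 16.9, 14.0, 15.0 and 14.1 CPM in fasted floxed and 23.9, 25.4 and 18.5 CPM in fasted M-p110αKO mice, a change of 0.60 ± 0.13 (SE, adjusted p = 0.0134). Fed mice of this line had 19.9, 20.5, 21.4 and 16.4 CPM (floxed) and 19.4, 18.9, 21.8 and 20.2 CPM (knockout). The fasted groups did not overlap and the fed groups did, and the 3 lowest libraries of the line were fasted floxed. Without library 14 the change was 0.51 and did not pass (adjusted p = 0.0892). Tomm40 in the p110β line was at 26.7, 26.2 and 25.9 CPM in fed floxed, 26.8, 25.2, 25.8 and 29.6 CPM in fed knockout, 29.3, 21.6 and 24.0 CPM in fasted floxed and 24.3, 21.8, 30.0 and 30.0 CPM in fasted knockout mice, where floxed and knockout as well as fed and fasted groups overlapped.

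Timm17a (chr1:135295213-135313778, minus strand), which with Timm23 forms the core of the presequence translocase, was at 95.2, 89.8, 94.9 and 80.6 CPM in fasted floxed and 120.5, 108 and 139 CPM in fasted M-p110αKO mice, a change of 0.45 ± 0.11 (SE, adjusted p = 0.0203). Fed mice had 105, 112, 123 and 117 CPM (floxed) and 106, 114, 118 and 129 CPM (knockout). Fasted floxed libraries were below all others of the line and fasted knockouts overlapped the fed groups. The call was lost with no low-count filter, and without library 12 (0.40, adjusted p = 0.0561) or library 15 (0.34, adjusted p = 0.0801). Timm17a in the p110β line was at 106, 108 and 122 CPM in fed floxed, 118, 105, 119.5 and 114 CPM in fed knockout, 76.9, 96.9 and 93.5 CPM in fasted floxed and 91.5, 109, 102 and 84.7 CPM in fasted knockout mice, and floxed and knockout mice overlapped in both states.

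Values that moved with the fasted M-p110αKO group stand beside these calls. Its 3 libraries had 6.99 to 9.00% mitochondrially encoded counts, against 8.28 to 10.5% in fasted floxed mice. Of 809 genes called in this comparison and measured in both lines, 264 also differed between the fed floxed mice of the lines in the same direction (p110β minus p110α) and 6 in the opposite one. Over all genes, 20.3% differed between those fed floxed mice, in either direction. For the 3 members that line difference was 0.53 ± 0.20 (SE, adjusted p = 0.059) for Timm10, 0.43 ± 0.13 (SE, adjusted p = 0.0197) for Tomm40 and -0.03 ± 0.11 (SE, adjusted p = 0.881) for Timm17a. Whether background within the p110α line had a part in the calls was not tested.

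**Figure D4:**
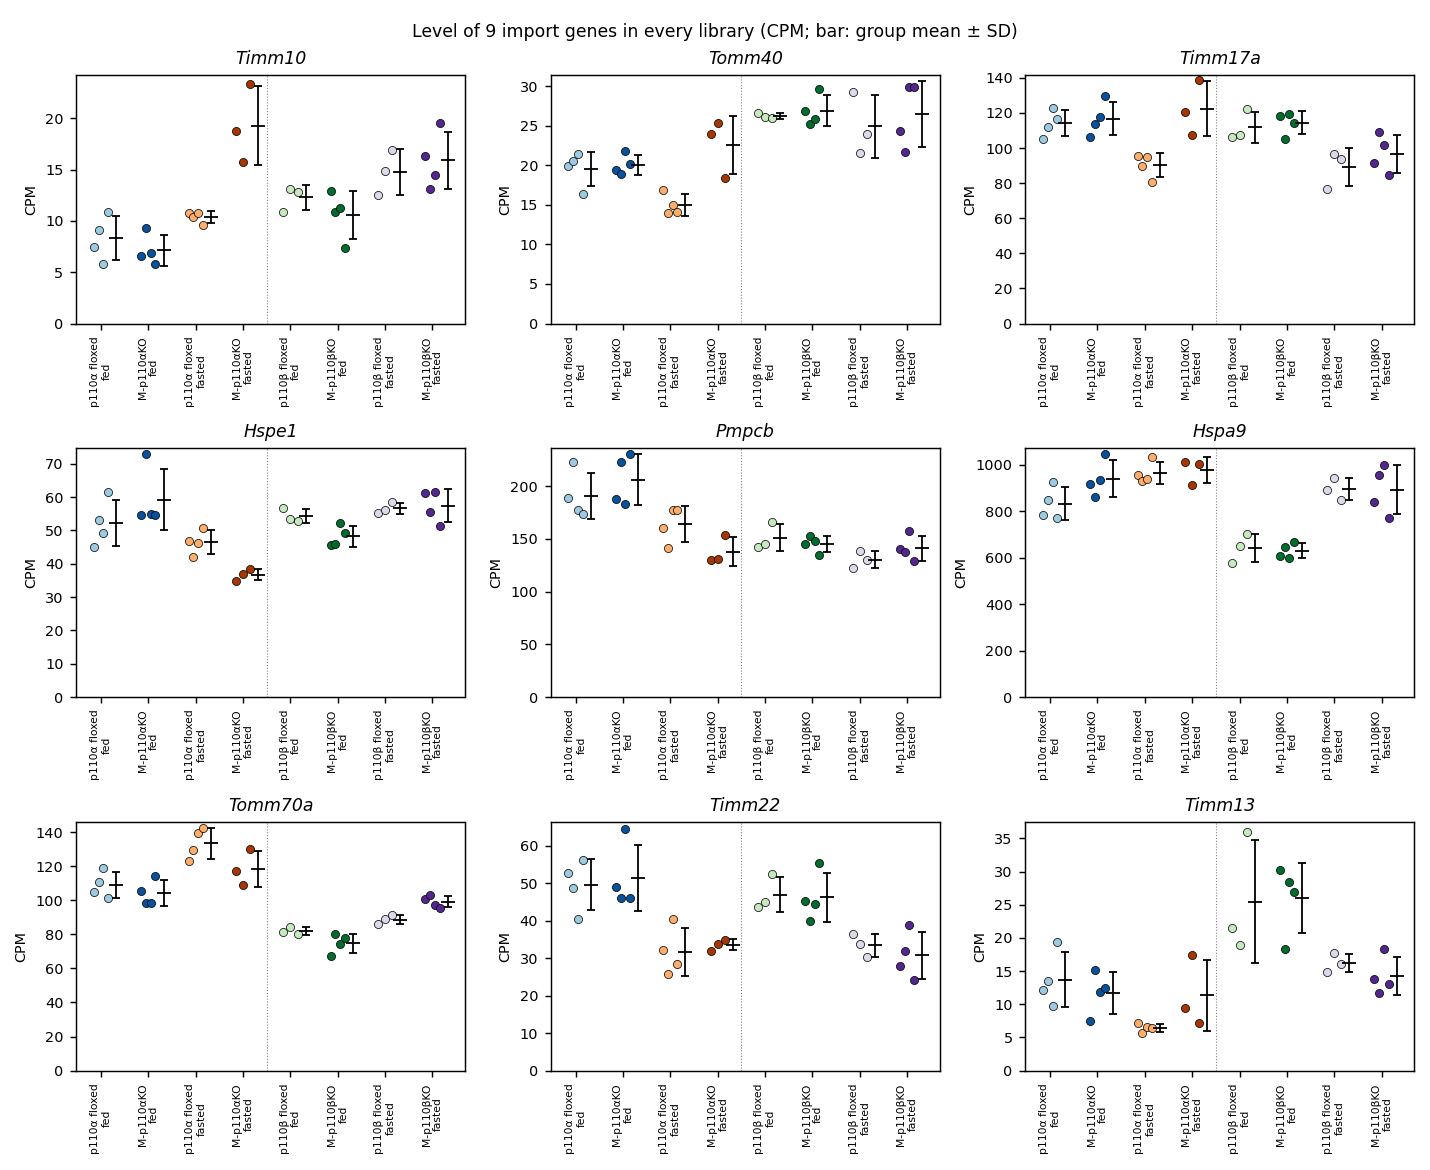
CPM of 9 import genes in each of the 29 libraries (points) by group, with the group mean and SD beside them; a dotted line separates the lines. Fasted M-p110αKO libraries are the highest of their line for Timm10 (15.8 to 23.4 CPM) and the lowest for Hspe1 (35.0 to 38.5 CPM).

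The difference between fasting responses was tested directly. The interaction of genotype and fasting called 0 of 31 members in the p110α line by edgeR (0.483% of all genes) and 1 by DESeq2, with 6 above and 2 below 0 at an unadjusted p under 0.05. Timm10 had the lowest p, 1.15 ± 0.27 (SE, adjusted p = 0.0685), followed by Tomm40, 0.56 ± 0.18 (SE, adjusted p = 0.158). In the p110β line edgeR and DESeq2 called 0 (0.106% of all genes), with 2 members at an unadjusted p under 0.05, Tomm70a and Dnajc19. The fasted knockout effect of the p110α line minus that of the p110β line was called for 0 members by edgeR and DESeq2 (4.88% of all genes), with 7 above and 3 below 0 at an unadjusted p under 0.05, Timm10 again among them (0.79 ± 0.27, SE, adjusted p = 0.0798). Without libraries 23 and 24 the p110β interaction and this effect called 0 members, with 1 fasted floxed library of the p110β line, and the value for Timm10 in the effect between lines was 1.00 ± 0.33 (adjusted p = 0.209). These comparisons share libraries with one another and with those above. Shares of all genes given here are at the adjusted threshold, so the counts at an unadjusted p cannot be set against them. In the fasted knockout effect between lines, 3 of 6 adipocyte markers (Cidec, Cfd and Adipoq) and the fibroblast marker Col1a1 were higher with all libraries. The part of these cells in the result was not tested.

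Between the lines, the fasting response of floxed mice differed for 0 members by edgeR and DESeq2 (1.56% of all genes), with 2 at an unadjusted p under 0.05, Timm44 and Samm50, both above 0. Without libraries 23 and 24 it called 0, at 0.48 ± 0.20 (adjusted p = 0.358) for Timm44 and 0.29 ± 0.23 (adjusted p = 0.672) for Samm50. The same comparison in knockouts was added after the data had been seen. There the response of M-p110βKO was above that of M-p110αKO for Hspe1, Pmpcb and Hspa9 and below it for Timm10, 4 of 31 members where 10.7% of all genes were called.

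Hspe1 (chr1:55088132-55091307, plus strand), the Hsp10 lid of the folding chamber, was at 54.7, 72.8, 55.0 and 54.5 CPM in fed and 35.0, 36.8 and 38.5 CPM in fasted M-p110αKO mice, a change of -0.69 ± 0.13 (SE, adjusted p = 0.00124). In M-p110βKO mice it was at 45.6, 45.9, 52.1 and 49.2 CPM fed and 61.3, 55.5, 61.4 and 51.3 CPM fasted, a rise of 0.25 ± 0.09 (SE, adjusted p = 0.0366) with groups that overlapped, lost in 6 of 12 alternatives (no low-count filter, and without library 19, 20, 22, 26 or 28). The difference between these responses was 0.94 ± 0.15 (SE, adjusted p = 0.000219), and it passed under every alternative and without every library. Floxed mice had 45.1, 53.0, 49.3 and 61.4 CPM fed and 46.7, 42.1, 46.2 and 50.8 CPM fasted in the p110α line and 56.9, 53.5 and 52.7 CPM fed and 55.3, 56.0 and 58.6 CPM fasted in the p110β line, with overlap in both. The 3 fasted M-p110αKO libraries were the lowest of all 29.

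Hspd1, the Hsp60 partner that shares its promoter region with Hspe1, passed in no comparison. It was at 171, 165, 187 and 184 CPM and 173, 156, 163 and 194 CPM in fed and fasted p110α floxed mice and at 172, 181, 236 and 191 CPM and 164, 158 and 161 CPM in fed and fasted M-p110αKO mice. Hspd1 in the p110β line was at 119.7, 162 and 152 CPM and 150.3, 148 and 155 CPM in floxed and at 124, 134, 134 and 159 CPM and 159, 149.8, 166 and 137 CPM in M-p110βKO mice. Fasted M-p110αKO libraries were below fed ones without overlap, -0.27 ± 0.11 (SE, adjusted p = 0.0919), and the difference between knockout responses was 0.43 ± 0.15 (SE, adjusted p = 0.0686).

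Pmpcb, the catalytic subunit of the processing peptidase, was at 188, 223, 183 and 231 CPM in fed and 130, 130.5 and 153 CPM in fasted M-p110αKO mice, without overlap, -0.58 ± 0.12 (SE, adjusted p = 0.00337). In M-p110βKO mice it was at 145, 153, 148 and 135 CPM and 141, 138, 157 and 129 CPM, with overlap, -0.04 ± 0.09 (SE, adjusted p = 0.743). The responses differed by 0.54 ± 0.15 (SE, adjusted p = 0.0203), a call lost without library 14 (0.52, adjusted p = 0.0555) and with the GC and length correction. Floxed mice had 189, 222, 177 and 174 CPM fed and 160.4, 142, 177 and 177 CPM fasted in the p110α line, and 142, 145 and 166 CPM fed and 122, 139 and 129.7 CPM fasted in the p110β line. These overlapped in the p110α line and were apart in the p110β line.

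For Hspa9 and Timm10, whose levels are given above, the responses of the knockouts differed by 0.45 ± 0.14 (SE, adjusted p = 0.035) and -0.84 ± 0.27 (SE, adjusted p = 0.0382). Leaving out single libraries ended the Hspa9 call in 6 of 15 fits (libraries 8, 14, 19, 21, 27 or 28), as did no low-count filter and the GC and length correction, and it ended the Timm10 call in 11 of 15 (all but libraries 6, 14, 22 and 29), where it was then between -0.67 and -0.86 at an adjusted p of up to 0.119. In this comparison 4 of 5 fibroblast markers, the macrophage marker Csf1r and the endothelial marker Kdr were lower. The part of these cells in the result was not tested.

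The lines differed before any fasting or deletion. Between fed floxed mice, 4 members were higher and 5 lower in the p110β line than in the p110α line, where 20.3% of all genes were called. Timm13 (0.88 ± 0.25), Dnajc19 (0.63 ± 0.22), Tomm7 (0.61 ± 0.19) and Tomm40 (0.43 ± 0.13) were higher, and Tomm70a (-0.41 ± 0.09), Pmpca (-0.38 ± 0.09), Hspa9 (-0.37 ± 0.10), Pmpcb (-0.34 ± 0.11) and Timm29 (-0.30 ± 0.10) lower, as log2 fold changes with SE and adjusted p between 0.00196 and 0.0424 (edgeR).

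Tomm7 was at 12.8, 16.1, 15.4 and 21.1 CPM in the p110α and 23.4, 21.6 and 30.0 CPM in the p110β line, and Pmpca at 167, 179.6, 185 and 164 CPM and 128, 122 and 151 CPM. Neither overlapped between lines, while Timm13 and Dnajc19 did. Of 11 alternatives, between 5 and 6 ended the calls of Timm29, Dnajc19, Tomm7, Tomm40 and Pmpcb, and 0 that of Pmpca. Without library 16 of fed p110β floxed mice 3 members were called, and 6 without library 1, 3 or 17. Endothelial markers were also higher in fed p110β floxed mice, 3 of 4 called, with sums of 304 to 439 CPM against 223 to 277 CPM. Of 7 skeletal muscle markers 3 were higher and 1 lower there (among Ttn, Ckm, Tnnt3 and Mb). The part of these cells in the result was not tested.

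Genes around the import route were counted from lists. Of 19 other import genes, such as inner membrane peptidases and metaxins, 2 rose and 8 fell on fasting averaged over genotypes, where 55.2% of all genes were called, with a median log2 fold change of -0.17. Pitrm1, which degrades cleaved presequences (0.34 ± 0.05), rose, and Dnajc11 (-0.36 ± 0.06) and Dnajc15 (-0.36 ± 0.07), a J-protein related to Dnajc19, fell. Of 10 genes of protein quality control in mitochondria 4 rose and 2 fell, with Clpx, the unfoldase of the ClpXP protease, at 0.97 ± 0.05 and Oma1, a stress-activated inner membrane protease, at -0.43 ± 0.06. Of 7 genes of the MICOS complex, which shapes the cristae, 0 rose and 4 fell, led by Minos1 (-0.53 ± 0.07). Of 6 cytosolic chaperone genes 2 rose, led by Dnaja2 (0.44 ± 0.05), and Stip1 fell (-0.31 ± 0.07).

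In fasted M-p110αKO against fasted floxed muscle, where 6.52% of all genes were called, 2 of the 19 other import genes were higher and 1 lower. Dnajc15 was higher by 0.50 ± 0.14. Mtch1, an outer membrane protein related to the insertase Mtch2, was higher by 0.99 ± 0.13 (adjusted p = 0.000604), and it was the gene of that list called in the interaction of the p110α line, at 0.89 ± 0.18 (adjusted p = 0.0387). Immp1l, a subunit of the inner membrane peptidase, was lower (-0.77 ± 0.20). Mtch1 and Dnajc15, but not Immp1l, were also called between the fed floxed mice of the lines, where 20.3% of all genes were. Whether background had a part in these calls was not tested. Of the 10 quality control genes 2 were higher and 1 lower, of the 7 MICOS genes 1 was lower (Apool), and of the 6 cytosolic chaperone genes 0 were called.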

How the data were processed

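RNA from skeletal muscle of 29 mice was sequenced from libraries made with a NEBNext mRNA kit; the labels and methods also name HTG EdgeSeq, a probe-based assay, for the sequencing. The table's 48023 genes were taken as counts of reads per gene, and how the assays were combined is not stated; CPM per kilobase assumes reads along the transcript. The authors aligned reads with STAR to GRCm38 and counted them per gene with Subread featureCounts, and deposited raw counts. Tool versions, the annotation release and the strand setting are not stated in the labels or methods. Symbols, positions and exon lengths came from GENCODE M21 (47224 IDs matched).

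The counts, 5351935 to 11653239 per library, were analysed in R 4.3.3 with edgeR 4.0.16: filterByExpr (min.count 10, min.total.count 15), TMM factors, and a quasi-likelihood test of group contrasts, fitted per line (15 and 14 libraries) or, for averages and comparisons of lines, over all 29. Calls were made at a Benjamini-Hochberg adjusted p under 0.05 over all genes of a fit. The steps were tested on simulated data. Alternatives were DESeq2 1.42.0 (test or size factors), no filter, a spline correction (5 df) for GC content and length, and each library left out. Added after the data had been seen were the comparison of fasting between knockouts and fits without the fasted M-p110αKO group or without libraries 23 and 24. Pseudogene copies were found with BLAST 2.17.0. Libraries are named by mouse number. Replicate pairs differed beyond sampling noise (chi-square per degree of freedom 3.92 to 31 over 39 pairs).

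The members and gene lists were chosen with earlier results of these data known. Values per library are given for members called in a knockout or interaction contrast, the 3 rises and 3 falls of lowest adjusted p in each fasting contrast, and Tomm20, Tomm40, Timm23, Timm50, Hspa9 and Hspd1. Of each other list at most 3 called genes per contrast are named, and 1 list of cell markers is not reported here. Tomm7 and Pmpca were given per library in fed floxed mice after their values were seen.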

Additional observations from a re-analysis of the deposited data

Results flagged for a closer look

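In 4 of the 90 groups of 4 libraries examined over 18 genes, 1 library stood far from the other 3 by Dixon's test, and chance gives about 1 in 20. In fed M-p110αKO mice, Hspe1 was at 72.8 CPM in library 6 against 54.5 to 55.0 in the others, Timm22 at 64.4 CPM in library 7 against 45.9 to 48.9, and Timm50 at 31.8 CPM in library 5 against 37.5 to 38.2. In fed M-p110βKO mice Timm50 was at 35.5 CPM in library 20 against 44.3 to 45.8.

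The response to fasting differed between the knockouts of the lines for 4 of 31 import genes (12.9%), where 10.7% of all genes were called. This comparison was added after the data had been seen. The log2 difference, M-p110βKO minus M-p110αKO, was 0.94 ± 0.15 (SE, adjusted p = 0.000219) for Hspe1, 0.54 ± 0.15 (SE, adjusted p = 0.0203) for Pmpcb, 0.45 ± 0.14 (SE, adjusted p = 0.035) for Hspa9 and -0.84 ± 0.27 (SE, adjusted p = 0.0382) for Timm10 (edgeR). Without library 6 the value for Hspe1 was 0.83 (adjusted p = 0.000456). Of 19 alternatives, 11 ended the call of Timm10, 8 that of Hspa9, 2 that of Pmpcb and 0 that of Hspe1. Line and genotype cannot be told apart in this comparison.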

How the results depend on the processing

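Of 73 calls of single import genes, refitted 1361 times under the alternatives, 158 fits lost the call and 1 changed direction: Hspe1 on fasting averaged over genotypes, at 0.058 without the fasted M-p110αKO group. Counts of members called moved as follows. With no low-count filter the interaction of the p110α line gave 2 and the fasted knockout effect between lines 1. DESeq2 gave 1 for that interaction and 5 for fasted M-p110αKO against floxed mice. With the GC and length correction the fasted knockout effect between lines gave 1 and the fed floxed comparison of lines 5 (2 higher, 3 lower). Without libraries 23 and 24 fasting in p110β floxed mice gave 1. The causes were not tested, and the share of all genes called was not counted in these or any other alternative fits. The last fit had a smaller group and also lacked the libraries high in adipocyte markers, which cannot be told apart.

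Leaving out single libraries gave 2 to 4 members for fasted M-p110αKO against floxed, 9 to 13 for fasting in p110α floxed, 5 to 9 in M-p110αKO, 2 to 5 in p110β floxed (lowest without library 24), 5 to 10 in M-p110βKO (lowest without library 26), 20 to 22 for the average, 3 to 10 between fed floxed lines, 2 to 5 between knockout responses (lowest without libraries 8, 14, 19, 21, 27 or 28), 0 to 1 for the p110α interaction and the fasted knockout effect between lines, and 0 for the other 5 comparisons.

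No paired analysis was possible because the mouse numbers are unique over the 29 libraries and the groups share none. Groups of 3 or 4 mice limit the precision, most for members at a few CPM such as Timm8a1 (3.17 CPM). GC content and length were known for 99.7% of genes.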
